A study of Homo sapiens with 6 samples.

Results

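MT-CO1, MT-CO2 and MT-CO3 are the 3 subunits of cytochrome c oxidase that are encoded by mt-DNA. They were taken by name from a count table of 19330 genes in K562 cells, where they are 3 of 13 mt-DNA-encoded ORFs. K562 is an established human chronic myelogenous leukemia line. All cells carried Cas9 and an sgRNA from a pLentiCRISPRv2 lentivirus and had been selected with puromycin for 48 h. The control condition (sgCtrl, n = 3) received sgRNAs against olfactory receptor genes (the methods also name EGFP), and the depleted condition (sgN6AMT1, n = 3) received sgRNAs against N6AMT1, which encodes a methyltransferase of the nucleus and cytosol. Each library came from its own transduction and was harvested at day 10. The cells were selected pools, and which sgRNA each pool held is not given in the sources used here.

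Cytochrome c oxidase, or complex IV, is the last enzyme of the respiratory chain. It passes electrons from cytochrome c to oxygen and pumps protons across the inner mitochondrial membrane. The subunit encoded by MT-CO1 holds the heme and copper center where oxygen is reduced, that of MT-CO2 holds the copper center that takes electrons from cytochrome c, and that of MT-CO3 completes the core without a redox metal. The remaining subunits are made from nuclear genes and are imported. The mRNAs of mt-DNA are cut from long polycistronic transcripts, in most places by excision of the tRNAs that lie between them.

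The 3 genes differ in what lies at their ends, and the sequences of these ends are shown for that reason. Positions are those of GRCh38 in the GENCODE v44 annotation, on the plus strand. Each window holds 30 bases outside and 30 bases inside the gene, 5′ to 3′, and capitals mark the start codon or the last codon (for MT-CO3, the lone last base).
MT-CO1, 5′ edge, chrM:5874-5933: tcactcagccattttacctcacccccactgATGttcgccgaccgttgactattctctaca
MT-CO1, 3′ edge, chrM:7416-7475: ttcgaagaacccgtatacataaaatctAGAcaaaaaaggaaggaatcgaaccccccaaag
MT-CO2, 5′ edge, chrM:7556-7615: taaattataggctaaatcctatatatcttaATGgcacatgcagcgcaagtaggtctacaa
MT-CO2, 3′ edge, chrM:8240-8299: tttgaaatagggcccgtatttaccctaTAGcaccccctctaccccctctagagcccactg
MT-CO3, 5′ edge, chrM:9177-9236: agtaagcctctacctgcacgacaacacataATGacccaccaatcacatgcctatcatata
MT-CO3, 3′ edge, chrM:9961-10020: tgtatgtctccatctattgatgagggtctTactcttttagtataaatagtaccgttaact

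MT-CO1 spans 5904 to 7445 (1542 bp, 46.2% GC). Its nearest neighbours are tRNA genes of the opposite strand, MT-TY at a distance of 12 bp upstream and MT-TS1 directly downstream, so neither edge of MT-CO1 meets a tRNA of its own strand. MT-CO2 spans 7586 to 8269 (684 bp, 46.2% GC). It begins directly after MT-TD and is followed after 25 bp by MT-TK, both on its own strand. MT-CO3 spans 9207 to 9990 (784 bp, 46.6% GC), shares its first base with the end of MT-ATP6, with no tRNA between them, and ends directly before MT-TG. Its annotated sequence ends in a single T, which polyadenylation completes to a stop codon.

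The libraries were not of equal depth. The sgCtrl libraries held 742470 to 866894 counts. The sgN6AMT1 libraries held 959319 counts in replicate 1 and 5526904 and 4062363 in replicates 2 and 3, so results that rest on the latter pair are also given without them. N6AMT1 itself averaged 8.08 ± 2.31 cpm (counts scaled to a common library size) in the controls and 2.40 ± 2.10 cpm after depletion (SD, n = 3 each). The control level rests on few counts, 6, 5 and 9 in replicates 1 to 3. The depleted replicates 1 to 3 held 0, 18 and 16 of its counts, or 0, 3.26 and 3.94 cpm. The count of 0 in replicate 1 allows up to 3.13 cpm (3 counts). No depleted library reached a control, with p = 0.1 by two-sided exact permutation, which is as low as 3 against 3 can go. The 8 K562 markers examined, among them the fetal globins HBG1 and HBG2, were detected in all 6 libraries. Their summed level was 9724 to 16683 cpm in sgCtrl and 17324 to 32632 cpm in sgN6AMT1, without overlap, so it moved with the results below, and its part in them was not tested. Of 13 epithelial, lymphoid and fibroblast markers, KRT5, KRT17, MS4A1, CD2 and LUM had 0 counts throughout. The summed epithelial markers, nearly all EPCAM, lay at 140 to 171 cpm in sgCtrl and 94.0 to 155 cpm in sgN6AMT1, those of lymphocytes reached at most 1.48 cpm, and those of fibroblasts lay at 16.1 to 22.9 cpm. In bulk RNA, fewer cells that hold a transcript and less of it per cell cannot be told apart.

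All 3 subunit transcripts fell in sgN6AMT1 cells, MT-CO2 the furthest. Counts on a gene can hold reads of mature mRNA and of unprocessed RNA, and these were not separated here. Their level fell 4.91-fold for MT-CO2, 3.24-fold for MT-CO3 and 2.79-fold for MT-CO1 in edgeR's fit. Of the 8324 genes tested, 4.76% were called lower (p under 0.05 after Benjamini-Hochberg adjustment across the table), and 14.1% had lower normalized counts in every sgN6AMT1 library than in any sgCtrl library. All 3 subunits met both criteria. The question behind the comparison was whether loss of N6AMT1 changes the RNAs made from nuclear and mitochondrial DNA.

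In sgCtrl replicates 1 to 3, MT-CO1 had 7827, 8089 and 5564 counts, which are 10518, 9332 and 6559 TMM-normalized cpm. In sgN6AMT1 replicates 1 to 3 it had 4566, 15558 and 7052 counts, or 4811, 2840 and 1813 TMM-normalized cpm. The highest sgN6AMT1 library thus lay below the lowest sgCtrl library, although the deeper libraries held more counts. The log2 fold change was -1.48 (standard error 0.27, edgeR quasi-likelihood adjusted p = 0.00238). With sgN6AMT1 replicate 1 as the only depleted library, which was assumed to vary like the controls, the log2 fold change was -0.86 (adjusted p = 0.0489).

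For MT-CO2 the sgCtrl libraries gave 3926, 3921 and 2735 counts, or 5276, 4524 and 3224 TMM-normalized cpm. The sgN6AMT1 libraries gave 1453, 4132 and 1498 counts, or 1531, 754 and 385 TMM-normalized cpm. Even the highest of these was less than the lowest control. The log2 fold change was -2.30 (standard error 0.33, edgeR adjusted p = 3.67e-04). The value came to -1.49 without the 2 deeper libraries (adjusted p = 7.19e-06).

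MT-CO3 received 6402, 6623 and 4136 counts in sgCtrl, or 8603, 7641 and 4876 TMM-normalized cpm. It received 2956, 12269 and 4562 counts in sgN6AMT1, or 3115, 2239 and 1173 TMM-normalized cpm. The conditions did not overlap. The log2 fold change was -1.70 (standard error 0.27, edgeR adjusted p = 0.00102), and -1.16 without the 2 deeper libraries (adjusted p = 0.00129). DESeq2, which called 6.7% of the genes it tested and 3.59% as lower, gave log2 fold changes of -1.50, -2.30 and -1.71 for MT-CO1, MT-CO2 and MT-CO3, with adjusted p of 0.0213, 0.00464 and 0.00531.

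**Figure D1:**
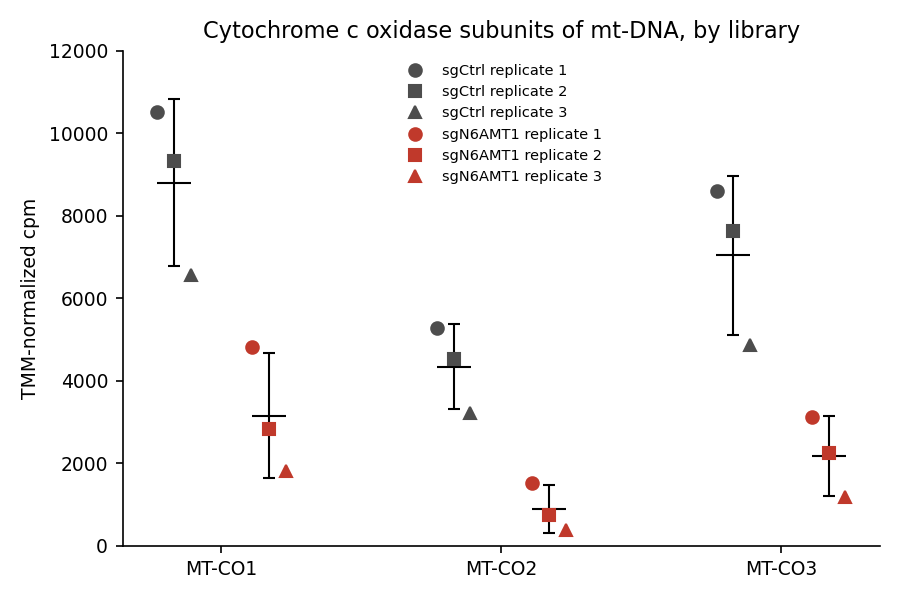
TMM-normalized cpm of MT-CO1, MT-CO2 and MT-CO3 (linear axis) in each library, with sgCtrl in gray and sgN6AMT1 in red, the symbol giving the replicate and bars the mean ± SD (n = 3). All sgN6AMT1 libraries lie below all sgCtrl libraries for each gene, and in both conditions replicate 1 is highest and replicate 3 lowest, for example 4811 and 1813 for MT-CO1 in sgN6AMT1.

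As a share of all counts in the library, the 3 transcripts together took up 2.45%, 2.15% and 1.44% in sgCtrl replicates 1 to 3. In the depleted replicates they took up 0.936%, 0.578% and 0.323%. The widest 95% Wilson interval of these shares was that of sgCtrl replicate 1, from 2.41% to 2.48%, so counting error was small beside the spread between libraries (such intervals cover counting error only). The means were 2.01 ± 0.52% and 0.612 ± 0.308% (SD, n = 3 each), a 3.28-fold difference, without overlap (p = 0.1 by two-sided exact permutation, and 0.1 after Benjamini-Hochberg adjustment over 4 such shares). With sgN6AMT1 replicate 1 alone the difference was 2.15-fold.

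The 3 sgN6AMT1 libraries did not show the same extent of loss. Relative to the sgCtrl mean, MT-CO1 stood at -0.84, -1.60 and -2.25 on the log2 scale in replicates 1 to 3, MT-CO2 at -1.47, -2.50 and -3.47, and MT-CO3 at -1.14, -1.61 and -2.54. The range across the sgN6AMT1 libraries was 1.41 for MT-CO1, 1.99 for MT-CO2 and 1.41 for MT-CO3, while the other 10 ORFs ranged over 2.26 to 3.37. Among the sgCtrl libraries the ranges of the 3 subunits were 0.68, 0.71 and 0.82. The extent of loss in the depleted pools was therefore more variable than the level in the controls, and it was smallest in the library of control-like depth.

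MT-CO2 was lost further than its partners within every depleted library, and this comparison does not depend on scaling between libraries. The count ratio of MT-CO1 to MT-CO2 was 1.99, 2.06 and 2.03 in the control replicates, and 3.14, 3.77 and 4.71 in the depleted replicates, in order. The controls were nearly equal to one another, and all depleted libraries stood above them. The mean log2 ratio was 1.02 ± 0.02 without depletion and 1.93 ± 0.29 with it (SD, n = 3 each). These differ by 0.91 (p = 0.1 by two-sided exact permutation; 0.15 adjusted over the 3 ratios), and by 0.63 with sgN6AMT1 replicate 1 alone. Counting error of a single log2 ratio was at most 0.04.

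The ratio of MT-CO3 to MT-CO2 was 1.63, 1.69 and 1.51 in sgCtrl and 2.03, 2.97 and 3.05 in sgN6AMT1. Here too the conditions did not overlap, with sgN6AMT1 replicate 1 the closest to the controls. The difference in the mean log2 ratio was 0.71 (0.69 ± 0.08 against 1.40 ± 0.33, SD, n = 3 each; two-sided exact permutation test, p = 0.1; adjusted 0.15), and 0.34 with sgN6AMT1 replicate 1 alone. The ratio of MT-CO1 to MT-CO3 was 1.22, 1.22 and 1.35 in sgCtrl against 1.54, 1.27 and 1.55 in sgN6AMT1. These overlapped, since sgN6AMT1 replicate 2 fell between the controls. The difference of 0.20 on the log2 scale was about as large as the SD of 0.16 among depleted libraries (exact permutation p = 0.2, adjusted 0.2). It was 0.29 with sgN6AMT1 replicate 1 alone.

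**Figure D2:**
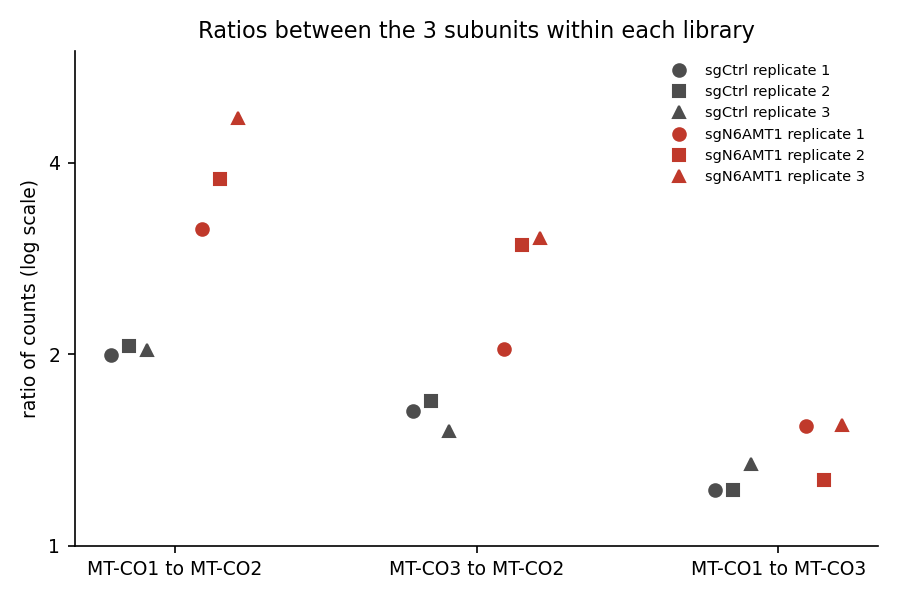
Ratio of counts between pairs of the 3 subunits within each library, on a log axis, with sgCtrl in gray, sgN6AMT1 in red and the symbol giving the replicate. For MT-CO1 to MT-CO2 the controls sit at 1.99 to 2.06 and the depleted libraries at 3.14 to 4.71, whereas the conditions overlap for MT-CO1 to MT-CO3.

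Levels of different genes were compared per length, as cpm per kb of annotated gene. MT-CO3 was the highest of the 13 ORFs in all 6 libraries, with 8945 ± 2550 in control and 2731 ± 1252 in depleted cells (SD, n = 3 each). MT-CO2 was second and MT-CO1 the third in all sgCtrl libraries, at 6320 ± 1578 and 5685 ± 1373. In all sgN6AMT1 libraries they stood in the opposite order, with 2013 ± 994 for MT-CO1 and 1282 ± 853 for MT-CO2. The spread between libraries exceeded the gap between these neighbours in each condition, but within libraries the level of MT-CO1 per kb was 0.884 to 0.915 of that of MT-CO2 in sgCtrl and 1.39 to 2.09 of it in sgN6AMT1. The order is subject to mapping. Of all 60 base windows, the length of the reads, 44.1% in MT-CO1, 19.4% in MT-CO2 and 24.4% in MT-CO3 had an exact copy elsewhere in GRCh38, mostly on chromosome 1. How the authors counted reads that map to several places is not stated. These windows are the same in both conditions, but whether reads of such copies affected the falls or the ratios was not tested.

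**Figure D3:**
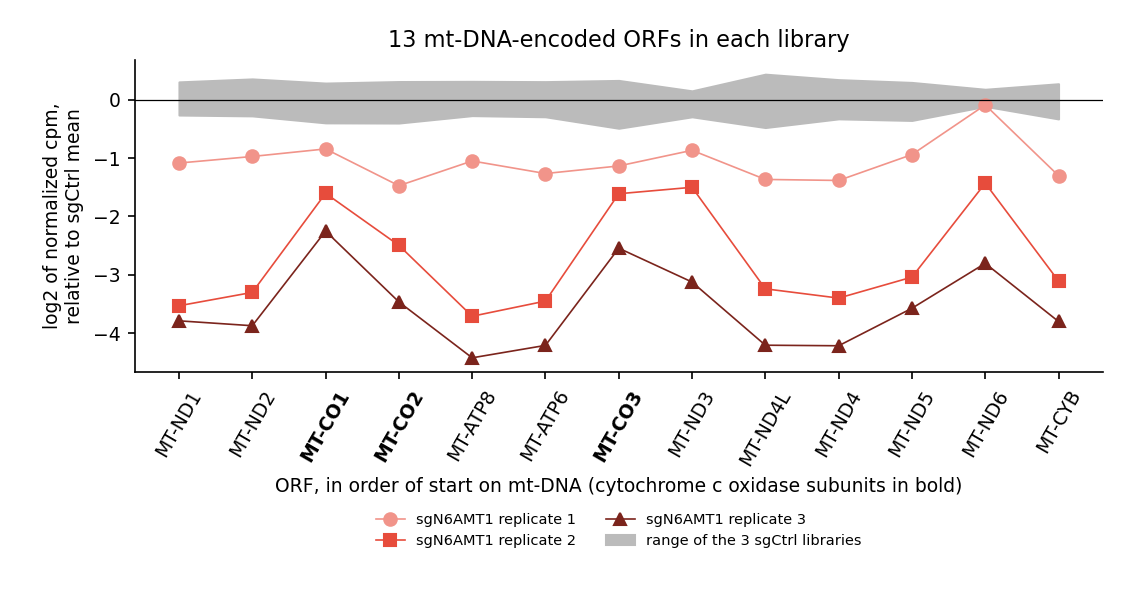
Log2 of the TMM-normalized cpm relative to the sgCtrl mean for the 13 ORFs in their order on mt-DNA, with 1 line for each sgN6AMT1 library and a gray band for the range of the 3 sgCtrl libraries. In sgN6AMT1 replicates 2 and 3, MT-CO1 and MT-CO3 lie above their upstream neighbours MT-ND2 and MT-ATP6, and in replicate 1 the ORFs differ less from one another.

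The 3 subunits were then set against the other 10 ORFs, which encode subunits of complexes I, III and V. In the edgeR fit, 9 of the 10 were called lower, with log2 fold changes between -2.59 (MT-ND4L) and -1.14 (MT-ND6, adjusted p = 0.0655). DESeq2 called 2 of these 10, MT-ND4L and MT-CYB, with log2 fold changes between -2.54 and -1.07 over the 10 and adjusted p from 0.0291 to 0.436. In edgeR's order from the smallest fall, MT-CO1 had rank 2 of the 13 ORFs, MT-CO3 rank 4 and MT-CO2 rank 7. Library by library, MT-CO1 had ranks 2, 3 and 1 in the depleted replicates, MT-CO3 had ranks 8, 4 and 2, and MT-CO2 had ranks 13, 5 and 5. MT-CO2 thus fell furthest of all ORFs in replicate 1 and less than most in the deeper libraries. The 4 ORFs with the smallest falls were MT-ND6, MT-CO1, MT-ND3 and MT-CO3, with log2 fold changes of -1.14, -1.48, -1.66 and -1.70.

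Among the ORF counts, MT-CO1 made up 20.0%, 21.3% and 20.0% in the control replicates. It made up 24.8%, 34.5% and 37.6% in the depleted replicates. Every depleted library lay above the controls (two-sided exact permutation test, p = 0.1, adjusted 0.2 over 4 shares). The means were 20.4 ± 0.72% and 32.3 ± 6.68% (SD, n = 3 each). They differed by 11.9 percentage points, and by 4.37 with sgN6AMT1 replicate 1 alone. MT-CO2 made up 10.0%, 10.3% and 9.85% in sgCtrl and 7.90%, 9.16% and 7.997% in sgN6AMT1. Its share was thus lower in each depleted library, by 1.72 percentage points in the mean (p = 0.1 in the exact permutation test, adjusted 0.2). With sgN6AMT1 replicate 1 alone the difference was -2.17 percentage points.

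MT-CO3 made up 16.4%, 17.4% and 14.9% in sgCtrl against 16.1%, 27.2% and 24.4% in sgN6AMT1, where replicate 1 lay among the controls (p = 0.3 in the exact permutation test; adjusted 0.3). The mean difference of 6.31 percentage points became -0.17 with that library alone. The 3 subunits together were 46.7 ± 2.14% of the ORF counts in control and 63.2 ± 12.5% in depleted cells (SD, n = 3 each), and sgN6AMT1 replicate 1, at 48.8%, fell below the highest control at 49.0% (exact permutation p = 0.2; adjusted 0.267). The higher joint share was thus that of the 2 deeper libraries, at 70.8% and 70.0%, and was 2.03 percentage points above the control mean with replicate 1 alone. In these libraries it moved with depth, whose part was not tested.

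**Figure D4:**
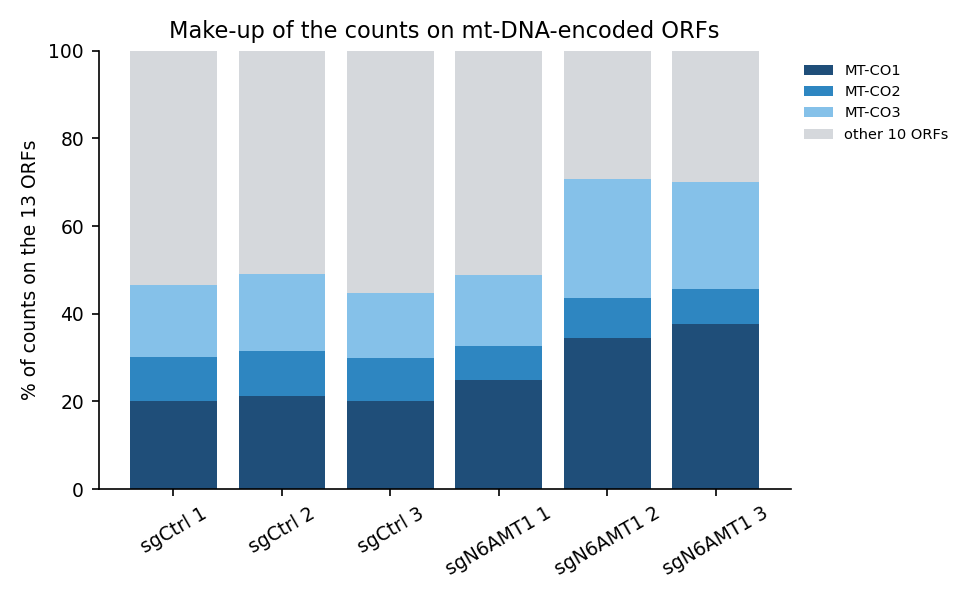
Percent of the counts on the 13 mt-DNA-encoded ORFs (axis from 0 to 100%) that fell on MT-CO1, MT-CO2, MT-CO3 and the other 10 ORFs in each library. The 3 subunits sum to 44.8% to 49.0% in sgCtrl and to 48.8%, 70.8% and 70.0% in sgN6AMT1 replicates 1 to 3.

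As a log2 ratio to the summed counts of the other 10 ORFs, MT-CO1 stood at -1.42, -1.26 and -1.46 in sgCtrl and at -1.05, 0.24 and 0.33 in sgN6AMT1. All depleted libraries were above the controls, a mean difference of 1.22 (two-sided exact permutation test, p = 0.1; adjusted 0.3 over the 3 subunits), which was 0.34 with replicate 1 alone. MT-CO3 stood at -1.71, -1.55 and -1.89 in sgCtrl and at -1.67, -0.10 and -0.30 in sgN6AMT1. Replicate 1 was within the controls, and the difference of 1.02 (exact permutation p = 0.2; adjusted 0.3) came down to 0.04 with that library alone. MT-CO2 had values of -2.41, -2.31 and -2.49 in sgCtrl and of -2.70, -1.67 and -1.91 in sgN6AMT1. It was below all controls in replicate 1 and above them in replicates 2 and 3, so that the difference of 0.31 (exact permutation p = 0.4; adjusted 0.4) turned to -0.29 with replicate 1 alone. It was 0.61 without replicate 1 and 0.10 without replicate 2.

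Taken ORF by ORF, 12 of the 30 ratios of a subunit to another ORF (40.0%) did not overlap between the conditions. Among all 78 pairs of the 13 ORFs this share was 47.4%, and among the 45 pairs without a cytochrome c oxidase subunit it was 51.1%, so changed proportions were not particular to these 3 transcripts. For MT-CO1, 7 of 10 ratios were higher in sgN6AMT1 without overlap, against MT-ND1, MT-ATP8, MT-ATP6, MT-ND4L, MT-ND4, MT-ND5 and MT-CYB. For MT-CO3 there were 3, against MT-ND4L, MT-ND4 and MT-CYB. For MT-CO2, 2 ratios were lower without overlap, against MT-ND3 and MT-ND6, and 0 were higher. The share of 60 base windows with an exact copy elsewhere in GRCh38 also differed between these ORFs. It was 40.0% in MT-ND2, 39.4% in MT-ATP6, 21.9% in MT-ND1 and 13.9% in MT-ND6. In MT-ND5, MT-ATP8, MT-ND4 and MT-CYB it was 2.34%, 2.03%, 1.44% and 0.277%, and in MT-ND3 and MT-ND4L it was 0%. The part of such copies in the ratios was not tested.

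Among direct neighbours on mt-DNA, the log2 ratio of MT-CO3 to MT-ATP6, the gene that it adjoins without a tRNA, was 1.02, 1.18 and 0.81 in sgCtrl and 1.13, 2.84 and 2.67 in the depleted replicates, in order. The latter pair stood far above the controls and replicate 1 among them. MT-CO1 to its upstream neighbour MT-ND2 gave 1.57, 1.83 and 1.52 in sgCtrl and 1.77, 3.34 and 3.26 in sgN6AMT1, with the same division. MT-CO2 to MT-ATP8, downstream of it, gave 2.89, 3.02 and 2.76 against 2.47, 4.11 and 3.85, with replicate 1 below the controls and the other libraries above them. MT-CO3 to MT-ND3, the next ORF downstream, differed from this, at 4.72, 4.54 and 4.33 against 4.26, 4.42 and 5.11, a mean difference of 0.07 with overlap. Counts near the shared base of MT-ATP6 and MT-CO3 depend on how overlapping reads were assigned, and their number was not determined.

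Against MT-ND3 and MT-ND6, the former on the strand of the subunits and the latter on the opposite one, MT-CO1 and MT-CO3 overlapped between conditions and MT-CO2 was lower. The log2 ratio of MT-CO1 to MT-ND3 differed by 0.26 between the means, and that of MT-CO2 to MT-ND3 by -0.65. The log2 ratio of MT-CO1 to MT-ND6 was 4.67, 4.74 and 4.28 in sgCtrl and 3.81, 4.39 and 5.12 in sgN6AMT1, which overlapped. The ratio of MT-CO2 to MT-ND6 was 3.68, 3.70 and 3.26 against 2.16, 2.48 and 2.88, lower in each depleted library. The libraries were made with a stranded kit, but whether the counts used the strand is not stated, and without it reads of antisense mt-RNA over the subunit genes would be counted with them.

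The nuclear-encoded subunits of the same enzyme were not called in either direction by edgeR or DESeq2. Of 18 nuclear-encoded subunits listed, 12 were tested, 11 with log2 fold changes above 0 and 1 below. Their median was 0.27, and that of all genes tested was 0.01. edgeR called 0 of them, while 9.85% of all genes were called, 5.09% as higher. An unadjusted p under 0.05 was found for 4 (33.3%), against 26.2% of all genes. COX7A2, COX8A and NDUFA4 were called higher without the filter on low counts and with the replicate number as a block, COX7A2 and NDUFA4 without sgCtrl replicate 3, and COX8A without sgN6AMT1 replicate 1. COX4I1, a subunit that joins early in assembly, had 366 ± 36.3 TMM-normalized cpm in control cells and 396 ± 4.24 in depleted cells (SD, n = 3 each). Its log2 fold change was 0.11 (standard error 0.14, edgeR adjusted p = 0.663). The most positive values were those of COX7A2, COX8A and NDUFA4, with log2 fold changes of 0.59, 0.57 and 0.52 and adjusted p of 0.0989, 0.0790 and 0.116, and the negative one was that of COX7B, at -0.29 (adjusted p = 0.240). The 6 subunits not tested are tissue-specific forms such as COX4I2 and COX7A1, with at most 7 counts in any library.

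Of 29 assembly factors, 25 were tested. The log2 fold change was above 0 for 11 and below 0 for 14 (median -0.08). Called lower were 2, COX20 and TIMM21, and called higher were 0, as with DESeq2. The 2 are 8.0% of the list, against 4.76% of all genes, and the 6 with an unadjusted p under 0.05 are 24%, against 26.2%. COX20, a chaperone in the maturation of the MT-CO2 product, fell. Its TMM-normalized cpm averaged 70.6 ± 9.75 in sgCtrl, and 36.3 ± 8.50 after depletion (SD, n = 3 each; log2 fold change -0.97, standard error 0.23, edgeR adjusted p = 0.0138). TIMM21, which links protein import to the early assembly of complex IV, fell from 64.5 ± 7.55 to 38.8 ± 5.11 (log2 fold change -0.77, standard error 0.21, edgeR adjusted p = 0.0292). Neither was called without sgCtrl replicate 2 or without the 2 deeper libraries, and TIMM21 was also not called without sgCtrl replicate 1, without sgN6AMT1 replicate 2 or after thinning to equal depth. SURF1, which acts in the maturation of the MT-CO1 product, had the most positive log2 fold change, 1.22 (edgeR adjusted p = 0.0511). It lay at 5.37 to 11.5 cpm in sgCtrl and 12.6 to 25.0 cpm in sgN6AMT1. The sgCtrl values rest on few counts, 4, 10 and 8, against 12, 137 and 82 in the sgN6AMT1 replicates. SURF1 was called higher without the filter on low counts, with the replicate number as a block and without sgN6AMT1 replicate 1.

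The third list held 23 factors that act on these mRNAs, on the ends of mt-mRNAs or in their synthesis and decay. All 23 were tested, and the log2 fold change was above 0 for 13 and below 0 for 10 (median 0.02). The 4 with an unadjusted p under 0.05 are 17.4% of the list and the 1 called higher is 4.35%, against 26.2% and 5.09% of all genes. FASTK, of a family of mitochondrial RNA-binding proteins, was called higher, at 30.4 ± 6.30 and 58.2 ± 25.1 TMM-normalized cpm (SD, n = 3 each; log2 fold change 0.98, standard error 0.30, edgeR adjusted p = 0.0422). It was not called by DESeq2, after thinning, with GC and length correction, without any 1 of the sgCtrl libraries, without sgN6AMT1 replicate 3 or without the 2 deeper libraries. LRPPRC, which with SLIRP stabilizes mt-mRNAs, had 605, 681 and 645 TMM-normalized cpm in sgCtrl and 551, 523 and 536 in sgN6AMT1. These did not overlap, but the log2 fold change of -0.26 (standard error 0.14) did not pass (edgeR adjusted p = 0.240). FASTKD5, needed for mt-mRNA ends that no tRNA marks, had 40.3, 42.7 and 37.7 cpm in sgCtrl and 23.2, 30.8 and 28.8 cpm in sgN6AMT1, likewise without overlap and without passing (log2 fold change -0.50, standard error 0.24, edgeR adjusted p = 0.192). Of all genes tested, 29.2% did not overlap between the conditions, and 14.1% did so as lower in sgN6AMT1. Most negative after FASTKD5 was PNPT1, an RNA-degrading enzyme of mitochondria, at -0.41 (edgeR adjusted p = 0.0982). Most positive after FASTK was HSD17B10, a part of mitochondrial RNase P, at 0.49 (edgeR adjusted p = 0.0606). HSD17B10 was called higher with at least 10 counts in every library, with the replicate number as a block and without sgCtrl replicate 3. TACO1, which promotes translation of MT-CO1, had a log2 fold change of 0.02 (edgeR adjusted p = 0.973).

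**Figure D5:**
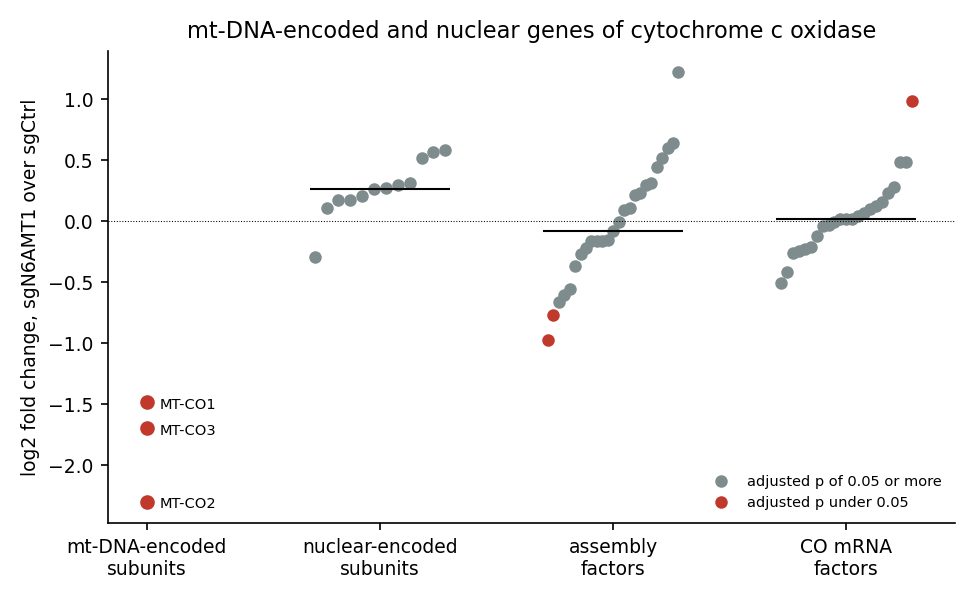
Log2 fold change of sgN6AMT1 over sgCtrl in the edgeR fit for the 3 mt-DNA-encoded subunits and for the tested nuclear-encoded subunits (12), assembly factors (25) and factors acting on the mRNAs (23); each point is a gene, red points have an adjusted p under 0.05 and lines are medians. The mt-DNA-encoded subunits lie at -1.48 to -2.30, below every nuclear gene shown, of which the lowest is COX20 at -0.97.

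Outside mt-DNA, the genes whose TMM-normalized log2 cpm followed the mean of the 3 subunits most closely over the 6 libraries were MTA1, PCNT, SCAF4, TRMT1L and PABPC1 (Pearson's r of 0.996, 0.995, 0.994, 0.993 and 0.993), out of 4156 genes with a mean of at least 50 normalized cpm. PABPC1, the main poly(A)-binding protein of the cytosol, had 2486, 2230 and 1833 normalized cpm in sgCtrl and 1664, 1232 and 927 in sgN6AMT1. The most opposite were RPS10, NQO2, DHX8, FXR2 and ENO1 (r of -0.997, -0.993, -0.992, -0.992 and -0.987). RPS10, a protein of the small cytosolic ribosomal subunit, had 1208, 1181 and 1458 normalized cpm in sgCtrl and 1773, 2245 and 2997 in sgN6AMT1. With 6 libraries in separate conditions these values only order the genes, and they say nothing of shared control.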

How the data were processed

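RNA-Seq counts of 6 K562 libraries, 3 sgCtrl and 3 sgN6AMT1, were grouped by their labels. The authors trimmed reads with cutadapt, mapped them with HISAT2 to GRCh38 and overlapped them with the release 84 annotation, and they deposited raw counts per gene without normalization. Strand use and multiply mapped reads are not stated. The sources differ on the RNA used, with total RNA after rRNA depletion in the methods and polyA RNA in the labels. From these counts, genes were filtered with filterByExpr, scaled by TMM and tested with the quasi-likelihood test of edgeR 4.0.16 (R 4.3.3) over all 8324 genes that passed, with Benjamini-Hochberg adjustment and a threshold of 0.05. The 3 subunits passed this filter and were read from that fit. DESeq2 1.42.0 was an alternative. For ratios and shares, an exact permutation test (two-sided) was run over libraries (Python 3.11.15). The fit was tested on counts simulated with the same dispersion for all genes. That checked the code and not the p-values of the subunits. Totals ran from 742470 to 5526904 counts, and p-values reflect the spread between 3 transductions. Gene names come from the table, with COA8 and PRORP under older symbols, and 17984 symbols matched GENCODE v44. Named are the 3 subunits, other ORFs used in ratios, listed genes that passed or were most extreme, and the 10 genes most and least alike; COX4I1, LRPPRC and TACO1 were named in addition, after their values were seen. The 3 genes and the lists were chosen with earlier results of these data known.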

Additional observations from a re-analysis of the deposited data

How the results depend on the processing

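The fall of MT-CO1, MT-CO2 and MT-CO3 kept its direction and its call under all 16 alternatives run for each: RLE size factors, total counts, TMM without mt-DNA-encoded genes, DESeq2, no filter, at least 10 counts in every library, a replicate block, thinning to 742470 counts, correction for GC content and length (values for 93.2% of genes), each library left out, and, chosen after seeing the data, the 2 deeper libraries left out. Log2 fold changes ran from -1.92 to -0.86 for MT-CO1, -2.93 to -1.49 for MT-CO2 and -2.05 to -1.16 for MT-CO3. The values nearest 0 came without the 2 deeper libraries and those farthest from 0 without sgN6AMT1 replicate 1.

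Of the ratios between the subunits, their ratios to the summed other ORFs and their shares of library and ORF counts (for ORF shares, with alternatives chosen after seeing the data), 2 turned in direction, both without the 2 deeper libraries. The ratio of MT-CO2 to the other ORFs was then -0.29 and the share of MT-CO3 in the ORF counts -0.17 percentage points from the controls. Ratios to single ORFs were not rerun. With 3 against 3, no permutation p can fall under 0.1, so these p-values say nothing of stability.

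Whether same-numbered libraries were paired is not stated. Their deviations over all genes correlated at -5.22e-04, 0.0827 and 0.190, and not every library correlated best with its own number. The levels of the 3 subunits had the same order of replicates in both conditions, so these correlations do not settle whether the libraries were paired. With the replicate number as a block (the replicate block), log2 fold changes were -1.57, -2.48 and -1.76 for MT-CO1, MT-CO2 and MT-CO3. The count over all genes went from 820 to 1195, and nuclear-encoded complex IV subunits called higher from 0 to 3. Left-out libraries took the genes called to between 220 (without sgCtrl replicate 2) and 951; thinning gave 535, and leaving out the 2 deeper libraries 122. Calls among the nuclear lists ranged from 0 to 3 in each direction.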

Other observations

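PCNT and SCAF4, among the genes most like the 3 subunits across the libraries, both lie on chromosome 21, from 46324124 to 46445769 and from 31671000 to 31732118 in GRCh38. They are thus on the side of N6AMT1 (28872191 to 28885371) toward the end of the long arm. After this was seen, the tested genes of that side were examined as a group. Of 66 such genes, 53 lay below 0 and 13 above 0 in log2 fold change (median -0.26), and 9 (13.6%) were called lower and 0 higher by edgeR, against 4.60% called lower and a median of 0.01 on other chromosomes except mt-DNA. Their median log2 difference from the sgCtrl mean was -0.32, -0.27 and -0.20 in the depleted replicates, in order, and between -0.0032 and 0.01 in the sgCtrl libraries. The value was therefore lowest in replicate 1, where the mt-DNA-encoded subunits had fallen least. The 9 tested genes on the other side of N6AMT1 had a median log2 fold change of -0.29, with 1 (11.1%) called lower. By library they had medians of 0.12, -0.26 and -0.34 in the depleted replicates and of -0.17, 0.02 and 0.10 in the sgCtrl replicates. In depleted replicate 1 they thus differed in sign from the first side. No test was made, since the group was chosen from these values, and the cause was not tested.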
